A study of Mus musculus with 6 samples.

Results

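The nuclear genes for the subunits of respiratory complexes II, III and IV and of ATP synthase (complex V) were examined in the livers of Acsm3 knockout and control mice. They were chosen by symbol: Sdha, Sdhb, Sdhc and Sdhd, and symbols that begin with Uqcr, with Atp5, or with Cox and a single digit from 4 to 8 and then a letter, leaving out 5 pseudogene symbols marked -ps. This gave 44 of 28450 listed genes, 4 for complex II, 8 for complex III, 16 for complex IV and 16 for complex V. Hepatic RNA was sequenced from 3 male Acsm3 knockout mice and 3 male control mice labelled WT, aged 12 weeks and fed a normal diet, with 1 poly(A)-selected library a mouse. How the allele was made, in which tissues it is missing, and the strain were not given in the sources used here. The unit is FPKM, which divides fragments by the length of the gene and the size of the library; the spacing of low values implied libraries of 15353000 to 16264500 fragments. At that depth the 39 subunit genes that were tested rested on 58.2 to 19326 fragments in each mouse. Acsm3, whose product activates medium-chain fatty acids in mitochondria, was at 33.2, 34.4 and 32.2 FPKM in controls 1 to 3, against 0.668, 2.92 and 1.08 FPKM in knockouts 1 to 3 (log2 fold change -3.84 ± 0.29, adjusted p = 0.00338).

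Complex II, succinate dehydrogenase, oxidises succinate to fumarate and passes the electrons to coenzyme Q, and it is the complex whose subunits all come from nuclear genes. Complex III carries electrons from coenzyme Q to cytochrome c, complex IV reduces oxygen with them, and complex V uses the resulting proton gradient to make ATP. The last 3 each join mitochondrially encoded core subunits to nuclear ones, which are made in the cytosol and imported. Hepatocytes are rich in mitochondria and use this system for fatty acid oxidation, gluconeogenesis and urea synthesis.

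In the knockout livers 11 of the 39 tested subunit genes fell, 0 rose and 28 did not pass the test (limma on log2(FPKM + 1), Benjamini-Hochberg adjustment over 10996 tested genes, threshold 0.05). Over all tested genes 287, or 2.61%, fell and 1532, or 13.9%, rose. The genes that fell were Sdhd of complex II, Uqcr10, Uqcrh and Uqcrb of complex III, Cox7b, Cox7c and Cox6c of complex IV, and Atp5h, Atp5j2, Atp5o and Atp5g1 of complex V. The mean FPKM of Atp5g1 fell by 22.8% and that of Uqcr10 fell by 39.2%, which are the ends of the range, and their adjusted p-values lay between 0.0122 and 0.0431. All 3 knockout mice lay below all 3 controls for 24 of the 39 genes, where 7.91% of all tested genes did so, and above them for 0 of the 39. The median log2 fold change was -0.25 over the 39 genes and 0.13 over all tested genes, and each of the 39 lay below that overall median. Most subunit genes have high levels, where falls were more common over all tested genes. Of the 33 with a mean of at least 20 FPKM, 9 fell, with a median of -0.25. Of all 1861 tested genes at that level 8.54% fell, with a median of 0.01, and of the 9135 below it 1.4% fell. Of the 6 subunit genes below it 2 fell, with a median of -0.34. Log2 fold change and mean level had a Spearman rho of 0.28 over the 39 genes and -0.19 over all tested genes. With 6 mice the strength of single calls was limited. Without control 1, 2 or 3 the count of genes that fell was 3, 1 and 3 (0.888%, 0.497% and 0.55% of all tested genes). Without knockout 1, 2 or 3 it was 3, 1 and 9 (1.01%, 0.516% and 2.56%). Sdhd alone was called in each of these 6 fits, with an adjusted p (limma) of up to 0.0498, just under the threshold. The scaling of the libraries moved the count as well: with median-ratio rescaling, which brought the median of all genes to -0.001, 22 of the 39 fell against 6.7% of all tested genes, and with no filter on low genes 5 of the 44 fell against 0.406%, namely Sdhd, Uqcr10, Uqcrh, Cox7b and Atp5o.

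Markers of the cells in the sample moved with the groups as well. The summed level of 8 hepatocyte markers was 45621 to 53906 FPKM in the controls and 33666 to 37626 FPKM in the knockouts. Most of this sum was Alb, with a mean of 34484 FPKM in the controls and 22584 FPKM in the knockouts. Of the 8 markers, Alb and Ttr fell, Hnf4a rose and 5 did not pass. The sum of 6 macrophage markers went from 161 to 250 FPKM in the controls to 283 to 533 FPKM in the knockouts, and 4 of the 6 rose. The sum of 6 stellate and fibroblast markers was 7.47 to 10.2 FPKM in the controls and 27.0 to 47.6 FPKM in the knockouts, with 4 of 6 higher, and 2 of 4 sinusoidal endothelial markers rose. Of 2 tested leukocyte markers 2 rose, of 3 erythroid markers 1 rose, and the 4 biliary markers were too low to test. These counts come from short lists and stand beside 13.9% higher and 2.61% lower over all tested genes. None of these markers was at 0 in any mouse. In knockout 3 the macrophage sum, at 283 FPKM, was the lowest of the 3 knockouts, and in a principal component analysis of log2(FPKM + 1) this mouse lay nearest the controls on the first component, at 10.1 beside 24.6 and 27.7 for the other knockouts and -17.3 to -25.9 for the controls. In whole liver, fewer cells of a type and less RNA per cell cannot be told apart, and the part of cell makeup in the subunit changes was not tested.

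Stretches of promoter are shown for the gene with the largest change in each complex, because each complex held a gene that fell. Whether the subunit genes moved together was not tested. They come from RefSeq (GRCm38.p6), run 5′ to 3′ on the strand of the gene, and leave out bases that lie in an annotated exon. Windows of 300 bases, 250 before and 50 after the start site, were found for 35 of the 44 genes and for 9 of the 11 that fell. Capitals mark a match, on either strand, to a motif of a factor known to act on respiratory genes. The stretches for Sdhd (chr9:50603850-50603909, minus strand), Uqcr10 (chr11:4704345-4704594, minus strand) and Cox7b (chrX:106015450-106015699, plus strand) end at the start site, and the stretch for Atp5h (chr11:115419963-115420127, minus strand) ends 43 bases before it.
Sdhd: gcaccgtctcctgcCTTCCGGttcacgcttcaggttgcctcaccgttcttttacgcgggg
Uqcr10: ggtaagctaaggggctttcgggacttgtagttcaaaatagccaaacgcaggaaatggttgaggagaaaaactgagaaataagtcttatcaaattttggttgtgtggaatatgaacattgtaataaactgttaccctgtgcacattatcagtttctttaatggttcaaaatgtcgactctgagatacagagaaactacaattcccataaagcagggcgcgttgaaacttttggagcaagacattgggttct
Cox7b: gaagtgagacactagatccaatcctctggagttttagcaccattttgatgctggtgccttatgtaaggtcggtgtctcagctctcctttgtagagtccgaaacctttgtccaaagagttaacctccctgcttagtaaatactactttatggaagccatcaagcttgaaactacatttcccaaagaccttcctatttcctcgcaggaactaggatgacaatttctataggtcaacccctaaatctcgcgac
Atp5h: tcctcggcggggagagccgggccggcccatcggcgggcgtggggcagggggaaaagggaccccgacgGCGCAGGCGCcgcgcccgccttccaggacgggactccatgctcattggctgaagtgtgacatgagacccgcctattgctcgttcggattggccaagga
In Sdhd the capitals are the reverse complement of CCGGAAG, the core motif of ETS factors such as GABP. In Atp5h they are a match to GCGCA, any base, then GCGC, the motif of NRF1, an activator of many respiratory genes, with its sixth base left free. The stretches of Uqcr10 and Cox7b hold no match to the motifs searched.

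Over the whole windows, searched on both strands, CCGGAAG stood in 12 of the 32 tested subunit genes with a window and in 3 of the 9 that fell, against 9.93% of all RefSeq genes. The NRF1 motif with a free sixth base stood in 10 of the 32 and in 3 of the 9, against 5.19% of all genes. Its strict form, GCGCA, T, then GCGC, whose matches are counted within the relaxed form too, stood in 4 of the 32 and 0 of the 9, against 1.07%. AAGGTCA, the half-site of estrogen-related receptors, stood in 5 of the 32 and 1 of the 9, against 5.38%. ATGGCGGC, a YY1 motif, stood in 0 of the 32, against 2.6%. The windows of Sdhd, with a relaxed NRF1 match and AAGGTCA, and of Atp5h, with CCGGAAG, hold these outside the stretches shown. The shares cover all RefSeq genes with a window, including genes too low in liver to test, so they are not a matched background for the subunit genes. The counts describe letters in the windows only.

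**Figure D1:**
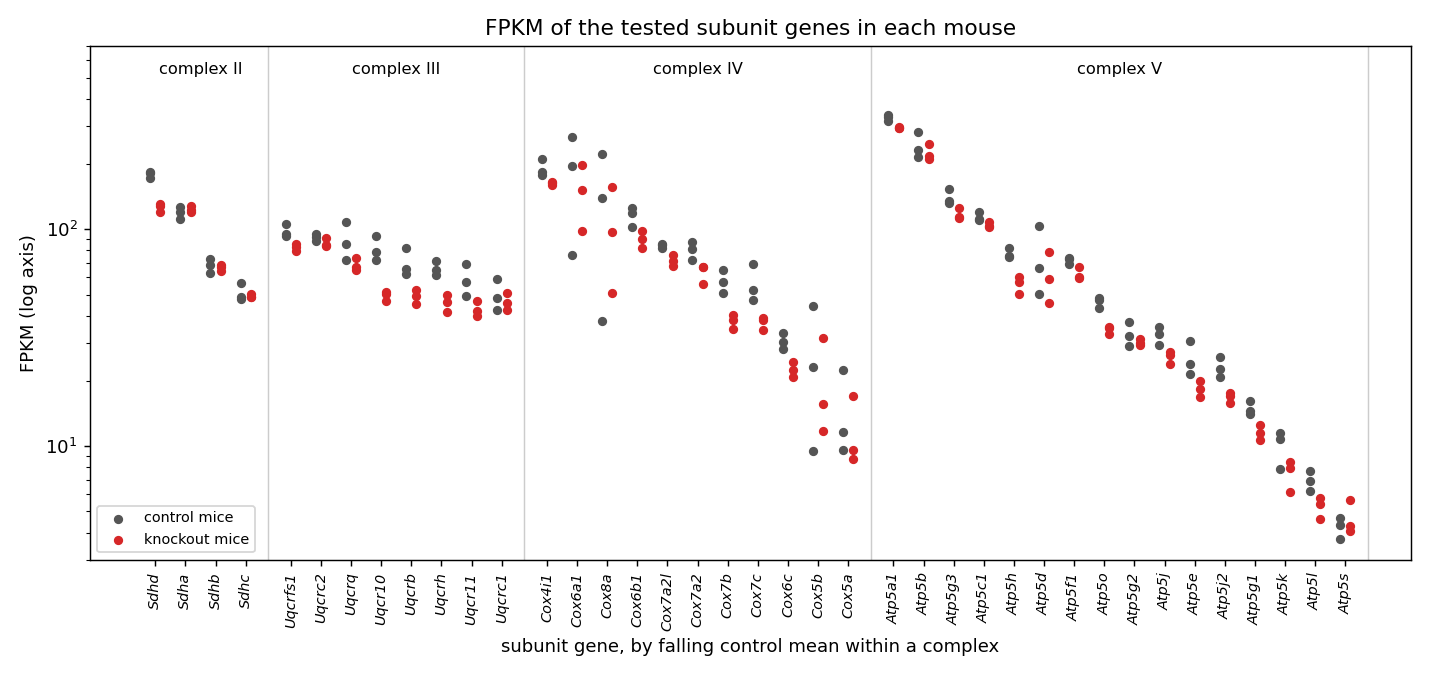
FPKM of each tested subunit gene in each mouse on a log axis, with controls in grey and knockouts in red; the genes are ordered by their mean in the controls within each complex. For 24 of the 39 genes the 3 red points lie below the 3 grey ones, and the genes with the widest scatter are Cox8a, Cox5b, Cox6a1, Cox5a and Atp5d.

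In complex II the change lay in 1 of 4 genes. Sdhd encodes the small membrane anchor that, with the Sdhc product, holds the complex in the inner membrane and helps to bind coenzyme Q (chromosome 9, 50596357 to 50603812, minus strand in GRCm38). It was at 181, 173 and 183 FPKM in controls 1 to 3, against 129, 120.1 and 130.5 FPKM in knockouts 1 to 3. The knockout values were close to one another and lay well below all controls, and the mean went from 179 ± 5.24 to 126 ± 5.52 FPKM (SD, n = 3) and so fell by 29.5%. The log2 fold change was -0.50 ± 0.07 (SE moderated by limma, adjusted p = 0.0122), the smallest p among the subunit genes. Its adjusted p reached 0.0498 without 1 mouse. The other anchor gene, Sdhc, was at 56.5, 48.7 and 47.8 FPKM in the controls and 48.8, 50.05 and 48.9 FPKM in the knockouts, with overlapping groups (log2 fold change -0.05 ± 0.08, adjusted p = 0.726).

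The catalytic subunits of complex II did not pass. Sdha, the flavoprotein that binds succinate, was at 127, 120.2 and 111 FPKM in the controls and 120.3, 123 and 128 FPKM in the knockouts. Its estimate was 0.05 ± 0.08 (adjusted p = 0.674) as deposited and -0.11 with median-ratio rescaling, so its direction depends on the scaling. Sdhb, the iron-sulfur subunit, was at 72.5, 63.2 and 68.8 FPKM in the controls and 66.8, 64.1 and 68.3 FPKM in the knockouts, and its estimate of -0.04 ± 0.08 (adjusted p = 0.778) was 0.04 after rescaling to a common sum. Sdhc likewise had 0.03 at that scaling. The difference between Sdhd and its 3 partners was not tested.

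Complex III had the largest single change. Uqcr10, a small accessory subunit next to cytochrome c1 and the Rieske protein (chromosome 11, 4701973 to 4704342, minus strand), was at 93.4, 78.4 and 71.8 FPKM in controls 1 to 3, against 51.2, 46.6 and 50.5 FPKM in knockouts 1 to 3. The highest knockout lay below the lowest control by a wide gap, and the mean went from 81.2 ± 11.1 to 49.4 ± 2.51 FPKM (SD, n = 3). It fell by 39.2%, with a log2 fold change of -0.70 ± 0.11 (adjusted p = 0.0144). Its adjusted p was at most 0.0581 without 1 mouse, and the call was lost without control 2 or knockout 2.

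Uqcrh, the acidic hinge protein that lies between cytochrome c1 and cytochrome c (chromosome 4, 116066965 to 116075071, minus strand), was at 71.1, 61.7 and 64.9 FPKM in the controls and 46.2, 41.6 and 49.7 FPKM in the knockouts. Its groups did not overlap, and it fell by 30.4% (log2 fold change -0.51 ± 0.09, adjusted p = 0.0205). Uqcrb, which lies near the coenzyme Q site on cytochrome b (chromosome 13, 66900617 to 66905378, minus strand), was at 81.7, 65.3 and 62.2 FPKM in the controls and 49.5, 45.4 and 52.2 FPKM in the knockouts. Control 1 was the highest of its 6 values and all knockouts lay below the lowest control, and the mean fell by 29.7% (log2 fold change -0.49 ± 0.12, adjusted p = 0.0374). Both calls were kept in 1 of the 6 fits without a mouse, the one without knockout 3. The call of Uqcrb was also lost with no filter (adjusted p = 0.0802) and with the exon length trend removed (adjusted p = 0.0634), where that of Uqcrh was kept.

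The other 5 genes of complex III did not pass. Uqcr11, a small subunit, was at 68.8, 56.9 and 49.1 FPKM in the controls and 46.5, 39.8 and 42.0 FPKM in the knockouts without overlap (log2 fold change -0.43 ± 0.13, adjusted p = 0.0674). Uqcrq, another small subunit on cytochrome b, was at 108, 85.6 and 72.2 FPKM in the controls and 74.0, 64.7 and 67.0 FPKM in the knockouts, where knockout 1 exceeded control 3 (log2 fold change -0.35 ± 0.15, adjusted p = 0.144). Uqcrfs1, the Rieske iron-sulfur protein that takes the electron from coenzyme Q, was at 106, 92.8 and 95.5 FPKM in the controls and 85.1, 79.3 and 82.9 FPKM in the knockouts and did not overlap (log2 fold change -0.25 ± 0.08, adjusted p = 0.0734).

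The large core proteins of complex III, Uqcrc1 and Uqcrc2, face the matrix and stem from a processing peptidase. Uqcrc2 was at 95.5, 88.6 and 92.5 FPKM in the controls and 83.6, 84.6 and 91.0 FPKM in the knockouts, with knockout 3 within the range of the controls (log2 fold change -0.09 ± 0.07, adjusted p = 0.388). Uqcrc1 was at 59.0, 48.4 and 42.5 FPKM in the controls and 50.6, 45.8 and 42.5 FPKM in the knockouts, with all 3 knockouts within the range of the controls (log2 fold change -0.10 ± 0.13, adjusted p = 0.632).

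**Figure D2:**
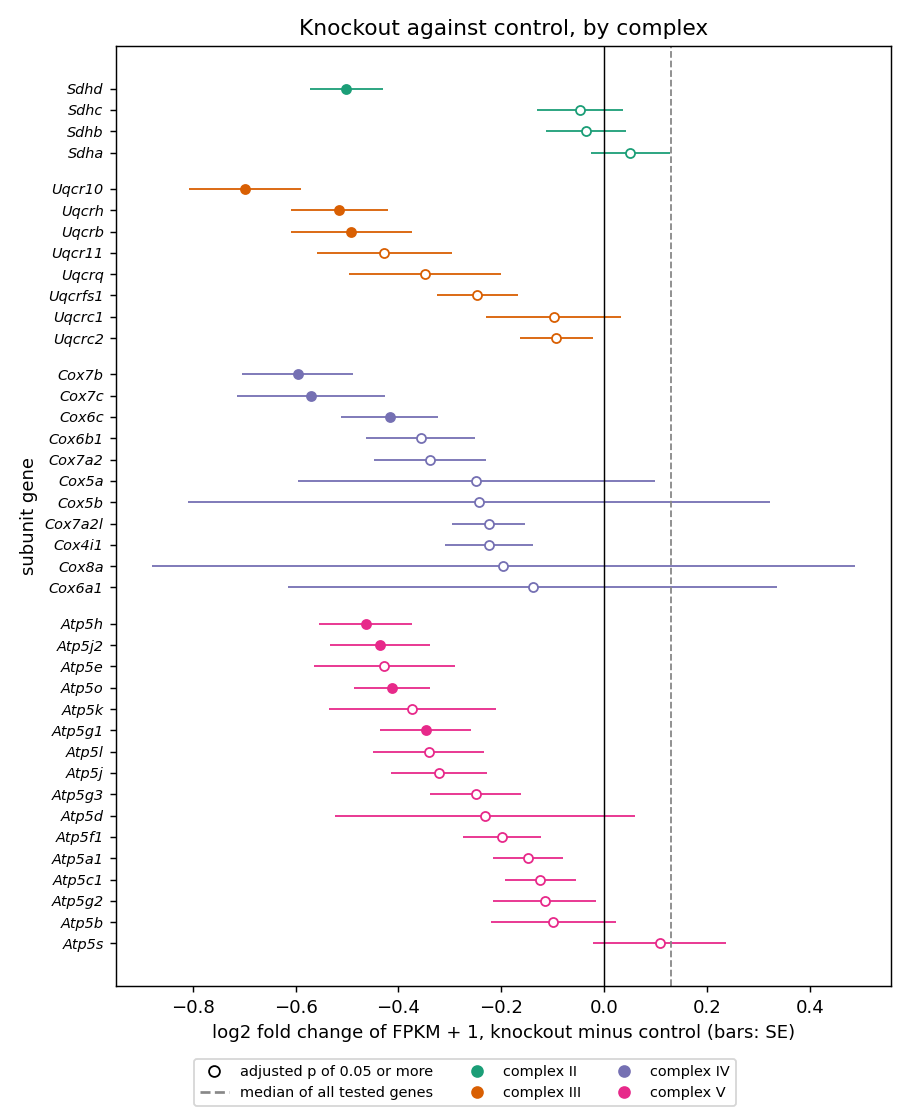
Log2 fold change of FPKM + 1, knockout minus control, for the 39 tested subunit genes by complex, with bars of 1 SE; filled points have an adjusted p under 0.05, and the dashed line is the median of all tested genes at 0.13. All 11 filled points lie left of 0, Sdha and Atp5s are the 2 points right of 0, and the bars of Cox8a, Cox5b, Cox6a1, Cox5a and Atp5d are the widest.

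In complex IV the genes that fell encode small subunits with a single membrane span around the mitochondrially encoded core. Cox7b (chromosome X, 106015700 to 106022450, plus strand) was at 65.1, 57.1 and 51.0 FPKM in controls 1 to 3, against 40.2, 34.7 and 38.2 FPKM in knockouts 1 to 3. The groups were far apart, and the mean went from 57.7 ± 7.10 to 37.7 ± 2.79 FPKM (SD, n = 3) and so fell by 34.6%. The log2 fold change was -0.60 ± 0.11 (adjusted p = 0.0204), and the adjusted p reached 0.0732 without 1 mouse, with the call lost without control 2 or knockout 2.

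Cox7c (chromosome 13, 86044816 to 86046904, minus strand) was at 69.3, 52.4 and 47.3 FPKM in the controls and 38.3, 34.4 and 38.9 FPKM in the knockouts. Control 1 stood above the other controls, and every knockout lay below them (log2 fold change -0.57 ± 0.14, adjusted p = 0.0415). This call was kept in 0 of the 6 fits without a mouse, where its adjusted p reached 0.131, and it was lost with no filter (adjusted p = 0.091) and with the exon length trend removed (adjusted p = 0.0571). Cox6c (chromosome 15, 35925886 to 35938246, minus strand), at 33.1, 30.4 and 27.98 FPKM in the controls and 22.5, 20.7 and 24.6 FPKM in the knockouts, fell by 25.9% without overlap (log2 fold change -0.42 ± 0.09, adjusted p = 0.0331), and kept its call without knockout 3 but in none of the other 5 such fits, nor with no filter (adjusted p = 0.0675).

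Of the 8 tested genes of complex IV that did not pass, 4 had groups that did not overlap. Cox4i1, the largest nuclear subunit, which binds ATP, was at 209.9, 184 and 177 FPKM in the controls and 165, 159 and 163 FPKM in the knockouts (log2 fold change -0.22 ± 0.09, adjusted p = 0.113). Cox6b1, which lies on the intermembrane side near cytochrome c, was at 126, 118 and 103 FPKM in the controls and 90.5, 81.7 and 98.0 FPKM in the knockouts (log2 fold change -0.36 ± 0.11, adjusted p = 0.0622). Cox7a2 was at 87.0, 81.2 and 71.9 FPKM in the controls and 66.8, 55.7 and 66.8 FPKM in the knockouts (log2 fold change -0.34 ± 0.11, adjusted p = 0.0745). Cox7a2l, which joins complexes III and IV into supercomplexes, was at 84.4, 81.6 and 85.5 FPKM in the controls and 71.1, 68.0 and 75.9 FPKM in the knockouts (log2 fold change -0.22 ± 0.07, adjusted p = 0.0729), and its knockout 3 stood closest to the controls.

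The remaining 4 tested genes of complex IV varied more between mice of 1 group than between the groups. Cox6a1 was at 266, 195 and 75.7 FPKM in the controls and 197, 152 and 98.2 FPKM in the knockouts (log2 fold change -0.14 ± 0.48, adjusted p = 0.862). Cox8a was at 223, 139 and 37.7 FPKM in the controls and 157, 96.9 and 51.0 FPKM in the knockouts (log2 fold change -0.20 ± 0.68, adjusted p = 0.865). Cox5b, on the matrix side, was at 44.3, 23.2 and 9.46 FPKM in the controls and 31.5, 15.7 and 11.7 FPKM in the knockouts (log2 fold change -0.24 ± 0.57, adjusted p = 0.791), and its partner Cox5a at 22.5, 11.6 and 9.63 FPKM in the controls and 17.1, 9.64 and 8.77 FPKM in the knockouts (log2 fold change -0.25 ± 0.35, adjusted p = 0.646). In both groups mouse 1 was the highest and mouse 3 the lowest for all 4 genes. Their estimates turned positive without control 1, with values of 0.09 for Cox5a, 0.26 for Cox5b, 0.23 for Cox6a1 and 0.34 for Cox8a, so no direction can be given for them. Without knockout 3 the sign also changed for Cox5b (0.05), Cox6a1 (0.13) and Cox8a (0.22), and without control 2 for Cox6a1 (0.01).

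Atp5d, the delta subunit of the central stalk of complex V, had the same order of mice, at 103, 65.9 and 50.4 FPKM in the controls and 78.5, 59.0 and 45.6 FPKM in the knockouts (log2 fold change -0.23 ± 0.29, adjusted p = 0.609; 0.05 without control 1). These 5 genes were picked out after their values were seen. The ratio of control 1 to control 3 was 2.34 for Cox5a, 4.68 for Cox5b, 3.51 for Cox6a1, 5.91 for Cox8a and 2.05 for Atp5d. The ratio of knockout 1 to knockout 3 was 1.95, 2.68, 2.01, 3.08 and 1.72 for the same genes. Both ratios were at least 2 in 3 of the 39 subunit genes (7.69%) and in 106 of all tested genes (0.964%). The SD of log2(FPKM + 1) within groups was 0.46 to 1.09 for the 5 genes, at most 0.24 for the other tested subunit genes, and 0.13 at the median of all tested genes. What sets these mice apart for these genes was not tested.

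**Figure D3:**
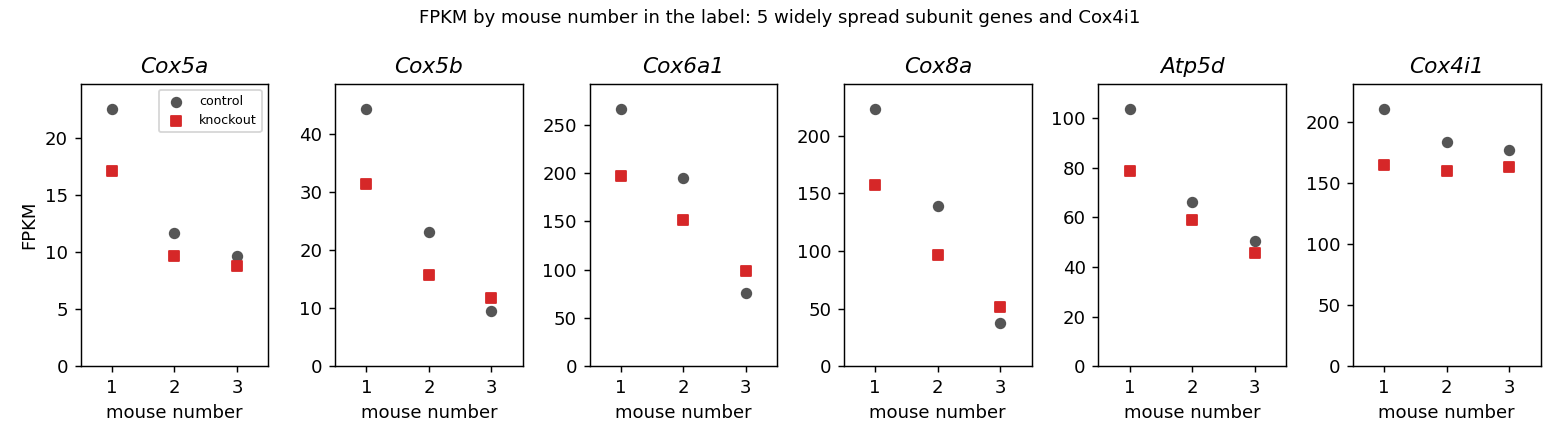
FPKM from 0 of Cox5a, Cox5b, Cox6a1, Cox8a and Atp5d by the mouse number in the label, with grey circles for controls and red squares for knockouts, and Cox4i1 beside them for comparison. In the 5 genes mouse 1 is the highest and mouse 3 the lowest in both groups, and the groups overlap.

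Several subunits of complex IV exist in forms for different tissues, and the liver forms made up nearly all of the signal. The forms known from heart and skeletal muscle, Cox6a2, Cox7a1 and Cox8b, the lung form Cox4i2 and the testis form Cox6b2 had means below 1 FPKM and were not tested. Cox7a1 was at 0.343, 0.354 and 0.357 FPKM in the controls and 0.360, 0.122 and 0.231 FPKM in the knockouts, on 1 to 3 fragments a mouse, beside Cox7a2 at 55.7 to 87.0 FPKM. Cox6b2 was at 0.276, 0.285 and 0.345 FPKM in the controls and 0.116, 0.118 and 0.0558 FPKM in the knockouts, on 1 to 6 fragments, and its groups did not overlap. Cox4i2 was at 0.155, 0.0801 and 0.162 FPKM in the controls and 0.163, 0 and 0 FPKM in the knockouts. Cox6a2 and Cox8b had 0 fragments in each mouse but knockout 1, which had 1 fragment for Cox6a2 and 3 for Cox8b; a count of 0 allows up to 3 fragments. Of 4 muscle markers in the table, Myh6 and Mb were at 0 FPKM in all 6 mice, Acta1 in each mouse but knockout 3, and Tnnt2 was above 0 in all 6; their sum was at most 0.16 FPKM. Of 4 brown adipocyte markers, Ucp1 was at 0 in all 6 mice and Adipoq and Plin1 lay below the filter. The fourth, Cidea, a lipid droplet protein, was at 3.26, 7.11 and 1.04 FPKM in the controls and 19.2, 22.2 and 35.9 FPKM in the knockouts and rose (log2 fold change 2.65 ± 0.49, adjusted p = 0.0213).

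In complex V the genes that fell belong to the peripheral stalk, the membrane part and the rotor. The peripheral stalk holds the catalytic head still while the rotor turns. Atp5h, its subunit d (chromosome 11, 115415689 to 115419962, minus strand), was at 82.2, 74.9 and 74.5 FPKM in controls 1 to 3, against 57.2, 50.2 and 60.0 FPKM in knockouts 1 to 3. No knockout reached the lowest control, and the mean went from 77.2 ± 4.32 to 55.8 ± 5.02 FPKM (SD, n = 3) and so fell by 27.7% (log2 fold change -0.46 ± 0.09, adjusted p = 0.0234). Atp5o, the oligomycin sensitivity protein that caps the stalk, was at 47.2, 43.4 and 48.4 FPKM in the controls and 35.1, 32.9 and 35.5 FPKM in the knockouts, with the knockouts close together and below the controls (log2 fold change -0.41 ± 0.07, adjusted p = 0.02). The deposited span of Atp5o, chromosome 16, 91684398 to 91931687, covers 2 overlapping gene models of that name and the genes Itsn1, Cryzl1 and Donson, so its value is less certain than the others. How fragments shared with pseudogenes were counted was not stated for any subunit gene. The other stalk genes did not pass: Atp5f1, subunit b, was at 73.4, 72.8 and 69.0 FPKM in the controls and 59.8, 60.2 and 67.3 FPKM in the knockouts (log2 fold change -0.20 ± 0.08, adjusted p = 0.113). Atp5j, coupling factor 6, was at 35.6, 32.9 and 29.3 FPKM in the controls and 27.1, 24.0 and 26.4 FPKM in the knockouts (log2 fold change -0.32 ± 0.09, adjusted p = 0.0596), and neither of these overlapped between groups.

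The membrane part lets protons through a ring of c subunits. Atp5j2, its subunit f (chromosome 5, 145183698 to 145192062, minus strand), was at 25.9, 22.6 and 20.8 FPKM in the controls and 17.5, 15.8 and 16.98 FPKM in the knockouts and fell by 27.4% without overlap (log2 fold change -0.44 ± 0.10, adjusted p = 0.0312). The c subunit is encoded by Atp5g1, Atp5g2 and Atp5g3, whose mature proteins are the same. Atp5g1 (chromosome 11, 96068852 to 96075670, minus strand) was at 16.2, 14.6 and 14.0 FPKM in the controls and 12.5, 10.6 and 11.5 FPKM in the knockouts and fell by 22.8% (log2 fold change -0.35 ± 0.09, adjusted p = 0.0431). Atp5g3 had the highest FPKM of the 3, at 153, 135 and 132 FPKM in the controls and 125, 113 and 114 FPKM in the knockouts, and its groups did not overlap (log2 fold change -0.25 ± 0.09, adjusted p = 0.0958). Atp5g2 was at 37.4, 29.1 and 32.1 FPKM in the controls and 31.3, 29.8 and 29.3 FPKM in the knockouts with overlap (log2 fold change -0.12 ± 0.10, adjusted p = 0.45). The difference between the 3 genes in their change was not tested, and fragments that they share could be split between them in a way that was not given in the sources used here.

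Subunits g and e of the membrane part, which help ATP synthase form dimers, did not pass. Atp5l, subunit g, was at 7.72, 6.89 and 6.22 FPKM in the controls and 5.80, 4.60 and 5.42 FPKM in the knockouts without overlap (log2 fold change -0.34 ± 0.11, adjusted p = 0.0723). Atp5k, subunit e, was at 10.8, 11.5 and 7.85 FPKM in the controls and 7.92, 6.15 and 8.43 FPKM in the knockouts, where knockout 3 exceeded control 3 (log2 fold change -0.37 ± 0.16, adjusted p = 0.153). Atp5h, Atp5j2 and Atp5o kept their calls only without knockout 3 among the 6 fits that left out a mouse, and Atp5g1, whose adjusted p reached 0.137, in 0 of them. With no filter the adjusted p was 0.0514 for Atp5h, 0.0658 for Atp5j2 and 0.0818 for Atp5g1. Atp5g1 also lost its call with a common sum (adjusted p = 0.0668) and with limma without a trend (adjusted p = 0.0502).

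The genes of the catalytic head and of the central stalk of complex V did not pass, nor did Atp5s. Atp5a1, the alpha subunit and the subunit gene of highest mean FPKM, was at 335, 315 and 329.9 FPKM in controls 1 to 3, against 294, 293 and 297 FPKM in knockouts 1 to 3. Its groups did not overlap, but the distance was small (log2 fold change -0.15 ± 0.07, adjusted p = 0.169). Atp5b, the catalytic beta subunit, was at 280.4, 231 and 214 FPKM in the controls and 247, 218 and 210.1 FPKM in the knockouts, with overlapping groups (log2 fold change -0.10 ± 0.12, adjusted p = 0.597; 0.01 without control 1). Atp5c1, the gamma subunit that turns inside the head, was at 119.7, 112 and 111 FPKM in the controls and 102, 104 and 108 FPKM in the knockouts (log2 fold change -0.12 ± 0.07, adjusted p = 0.245), and the lowest control lay above the highest knockout. Atp5e, the epsilon subunit of the same rotor stalk, was at 30.5, 23.9 and 21.4 FPKM in the controls and 18.3, 16.8 and 20.1 FPKM in the knockouts (log2 fold change -0.43 ± 0.14, adjusted p = 0.0748). Atp5s, coupling factor B, was placed in complex V by its symbol alone. It was at 4.35, 4.65 and 3.71 FPKM in the controls and 5.67, 4.07 and 4.28 FPKM in the knockouts. Its estimate of 0.11 ± 0.13 (adjusted p = 0.587) turned to -0.03 with median-ratio rescaling and -0.06 with quantile normalization.

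**Figure D4:**
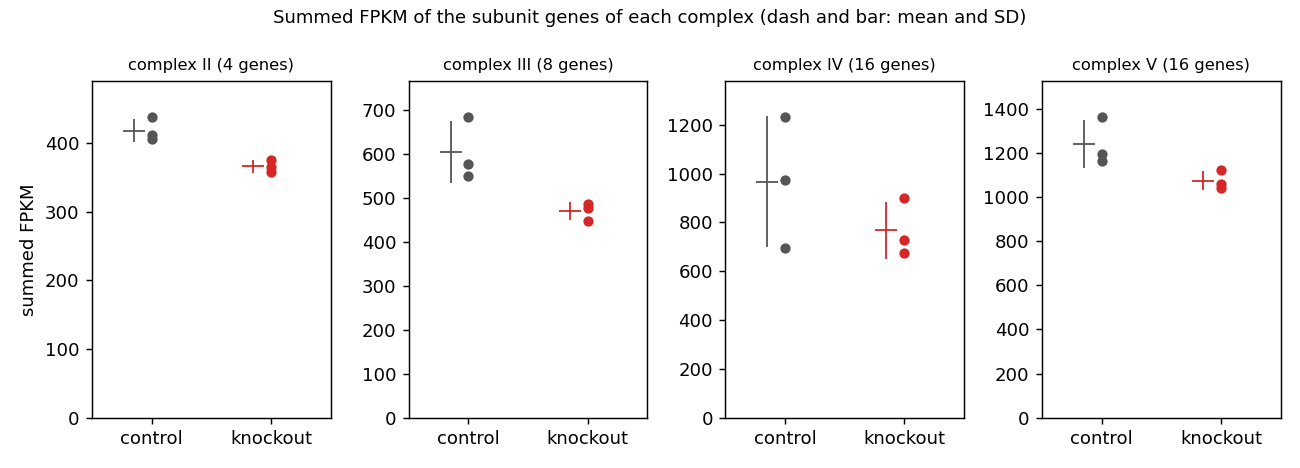
Summed FPKM of the subunit genes of each complex in each mouse, from 0, with dashes and bars for the mean and SD of 3 mice. The knockout points lie below the control points for complexes II, III and V, and overlap with them for complex IV.

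Summed over a complex, the knockout level was lower in each, with no test of these sums. The complex II sum was 437.6, 405.3 and 411.1 FPKM in the controls and 364.4, 357.4 and 375.7 FPKM in the knockouts. Its mean went from 418.0 to 365.8 FPKM, 12.5% lower. That fall lay in Sdhd, whose mean went from 179 to 126 FPKM. The means of Sdha, Sdhb and Sdhc went from 119.6 to 123.8, 68.2 to 66.4 and 51.0 to 49.2 FPKM. The complex III sum was 683.7, 577.7 and 550.8 FPKM in the controls and 486.7, 447.8 and 477.9 FPKM in the knockouts, 22.1% lower. For complex IV the controls spread from 697.0 to 1231.2 FPKM and the knockouts from 675.1 to 898.4 FPKM, so the groups overlapped. Without Cox5a, Cox5b, Cox6a1 and Cox8a, a choice made after the values were seen, the controls were at 675.6, 605.3 and 564.5 FPKM and the knockouts at 495.5, 454.7 and 505.3 FPKM, 21.1% lower without overlap. The complex V sum was 1362.9, 1195.8 and 1164.2 FPKM in the controls and 1124.1, 1042.4 and 1058.9 FPKM in the knockouts, 13.4% lower.

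The order of levels within a complex was led by different kinds of subunit. FPKM of these genes are scaled to the full exon length of the gene, so the order depends on the annotated exons: Atp5l has 309 coding bases in 6443 bases of exon. By the mean of the controls, Sdhd and Sdha led complex II, Uqcrfs1 and Uqcrc2 led complex III, Cox4i1, Cox6a1 and Cox8a led complex IV, and Atp5a1 and Atp5b led complex V. In the controls Sdhd (179 ± 5.24 FPKM, SD, n = 3) stood above Sdha (119.6 ± 7.88 FPKM) without overlap. In the knockouts the mice ranged from 120.1 to 130.5 FPKM for Sdhd and from 120.3 to 128 FPKM for Sdha, so these neighbours overlapped there. Uqcrfs1 led Uqcrc2 in the controls, at 98.1 ± 7.03 FPKM against 92.2 ± 3.45 FPKM, and the order of the means turned in the knockouts, at 82.4 ± 2.93 FPKM against 86.4 ± 3.99 FPKM; the 2 genes overlapped in both groups. The controls of Cox4i1, Cox6a1 and Cox8a overlapped as well.

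Among the subunit genes the change went with the length of the protein. Over the 39 genes, log2 fold change and the longest annotated coding length had a Spearman rho of 0.71, where the rho over 9886 tested genes with a coding length was 0.16; both are given as a description across genes of the same 6 libraries. Of the 23 subunit genes with under 450 coding bases, 8 fell and the median log2 fold change was -0.35, while 5.81% of the 689 tested genes of that length fell, with a median of 0.02. Of the 11 with 450 to under 900 coding bases, 3 fell with a median of -0.22, beside 2.71% and 0.10 over 2070 genes. The 5 with at least 900 coding bases, Sdha, Uqcrc1, Uqcrc2, Atp5a1 and Atp5b, had a median of -0.10 and 0 calls, beside 2.22% and 0.16 over 7127 genes. Exon length moved with the change too (rho 0.46 over the 39 genes, 0.19 over 10985 tested genes), and GC content less (0.15 and -0.08). With the trend on exon length removed from each mouse, 10 of the 39 genes fell, and 2.18% of all tested genes, with Uqcrb and Cox7c no longer called and Atp5j called in addition (adjusted p = 0.0498); removed after median-ratio rescaling, a setting added after the data were seen, 18 fell, and 5.52% of all tested genes. The part of coding length in the result was not tested.

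**Figure D5:**
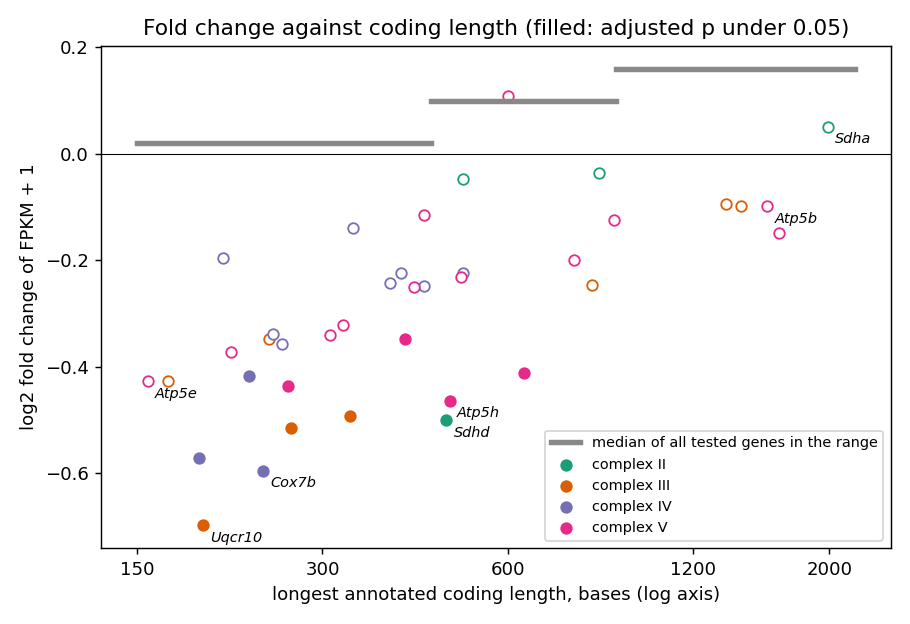
Log2 fold change of the tested subunit genes against coding length in bases on a log axis, coloured by complex and filled where the adjusted p was under 0.05, with grey lines for the median of all tested genes in 3 ranges of coding length. The short genes lie lowest, the 5 genes of at least 900 coding bases lie near -0.10 at the median, and the grey medians are 0.02, 0.10 and 0.16.

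The mitochondrially encoded partners in complexes III to V did not pass the test in either direction, and 0 of the 6 had an unadjusted p under 0.05 (limma). mt-Cytb, the core of complex III, was at 6775, 6539 and 7248 FPKM in the controls and 6980.0, 7272 and 8089 FPKM in the knockouts (log2 fold change 0.12 ± 0.11, adjusted p = 0.467; -0.05 with median-ratio rescaling). mt-Co1, which holds the oxygen site of complex IV, was at 16771, 17204 and 17358 FPKM in the controls and 14713, 14872 and 16859 FPKM in the knockouts (log2 fold change -0.15 ± 0.11, adjusted p = 0.378). mt-Co2, which takes electrons from cytochrome c, was at 681, 679 and 1394 FPKM in the controls and 532, 545 and 603 FPKM in the knockouts, with control 3 far above the other mice (log2 fold change -0.63 ± 0.28, adjusted p = 0.157). The groups did not overlap for mt-Co2. mt-Co3 was at 661, 522 and 610.0 FPKM in the controls and 459, 503 and 678 FPKM in the knockouts (log2 fold change -0.14 ± 0.17, adjusted p = 0.573). In complex V, mt-Atp6 was at 771, 752 and 863 FPKM in the controls and 740.1, 804 and 872 FPKM in the knockouts and mt-Atp8 at 36.9, 21.1 and 28.7 FPKM in the controls and 27.1, 19.5 and 41.2 FPKM in the knockouts, with overlapping groups and estimates whose sign changed between scalings (log2 fold changes 0.02 ± 0.10 and -0.01 ± 0.29 as deposited). The summed level of the 6 genes, most of it from mt-Co1 and mt-Cytb, was 5.5% lower in the knockouts with overlapping groups. These transcripts were read in a poly(A)-selected library, and the difference between them and the nuclear subunits was not tested.

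Among genes that work with the subunits, most did not pass the test. Counts below stand beside shares of 2.61% lower and 13.9% higher and a median log2 fold change of 0.13 over all tested genes. Of 34 tested assembly factors of complexes II to V, 0 fell and 1 rose, with a median of -0.00 and 29 of the 34 below the median of all genes. The one that rose was Cox19, which serves in the copper supply of complex IV, at 8.44, 6.67 and 6.37 FPKM in the controls and 11.5, 10.7 and 10.3 FPKM in the knockouts (log2 fold change 0.54 ± 0.11, adjusted p = 0.0254). Of 4 tested subunits and electron carriers outside the symbol rule, 0 passed, and all 4 estimates were below 0: -0.48 ± 0.15 for Usmg5 of complex V, -0.29 ± 0.11 for Ndufa4 of complex IV, -0.26 ± 0.12 for cytochrome c1 (Cyc1) and -0.16 ± 0.07 for cytochrome c (Cycs). Of 15 tested genes of electron transfer to coenzyme Q and its synthesis, 2 fell and 1 rose, beside 2.61% and 13.9% of all tested genes, with a median of -0.02 beside 0.13. Etfb, the beta subunit of the electron transfer flavoprotein that serves fatty acid oxidation, was at 12.0, 12.4 and 10.99 FPKM in the controls and 8.55, 8.25 and 10.2 FPKM in the knockouts (log2 fold change -0.36 ± 0.10, adjusted p = 0.0487). Etfdh, which passes those electrons to coenzyme Q, was at 67.4, 69.9 and 69.8 FPKM in the controls and 56.8, 54.7 and 58.4 FPKM in the knockouts (log2 fold change -0.28 ± 0.06, adjusted p = 0.0343), and Coq7, of coenzyme Q synthesis, was at 2.51, 2.35 and 2.33 FPKM in the controls and 3.19, 3.03 and 3.20 FPKM in the knockouts (log2 fold change 0.29 ± 0.07, adjusted p = 0.0456). Among the 6 fits without a mouse, Cox19 kept its call in 2, Etfb and Etfdh in 1 each and Coq7 in 0, and with no filter 0 of these 4 passed. Etfb and Etfdh also lost their calls with a common sum and with the replicate number as a block. The call of Etfb was lost as well with the exon length or GC trend removed, with limma without a trend and with voom. That of Etfdh was lost with quantile normalization, and that of Coq7 with the block and with the exon length trend removed. The estimate of Coq7 was 0.17 (adjusted p = 0.18) with median-ratio rescaling and 0.08 (adjusted p = 0.567) with quantile normalization.

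Complex I was taken as the genes with Nduf symbols other than its assembly factors and Ndufa4. The 36 tested include Ndufa4l2, a paralog of Ndufa4 and not a complex I subunit, which did not pass (log2 fold change 0.44 ± 0.20, adjusted p = 0.16). Of the 36, 4 fell and 0 rose, beside 2.61% and 13.9% of all tested genes, with a median of -0.26 beside 0.13. These were Ndufa5 (log2 fold change -0.53 ± 0.14, adjusted p = 0.043), Ndufb10 (-0.48 ± 0.11, adjusted p = 0.033), Ndufb11 (-0.47 ± 0.10, adjusted p = 0.0304) and Ndufa11 (-0.36 ± 0.09, adjusted p = 0.0427), accessory subunits all. The knockouts lay below the controls without overlap for 23 of the 36, and for 7.91% of all tested genes. Each of the 4 calls was kept in 1 of the 6 fits without a mouse, and all 4 were lost with no filter. With the exon length trend removed, those of Ndufa5, Ndufb11 and Ndufa11 were lost. Ndufa11 also lost its call with a common sum, with the GC trend removed and with voom, and Ndufa5 with the replicate number as a block. Of 13 regulators of respiratory genes, 1 fell and 1 rose, beside the same 2.61% and 13.9%, with a median of 0.05. Esrra, the estrogen-related receptor alpha that activates respiratory genes, was at 19.4, 16.96 and 16.8 FPKM in the controls and 12.6, 12.5 and 10.7 FPKM in the knockouts and fell by 32.7% (log2 fold change -0.54 ± 0.09, adjusted p = 0.0194). Pprc1, a coactivator related to PGC-1, was at 1.38, 1.70 and 1.73 FPKM in the controls and 2.37, 2.24 and 3.04 FPKM in the knockouts (log2 fold change 0.44 ± 0.12, adjusted p = 0.0459). Without 1 mouse, Esrra kept its call in 2 of 6 fits and Pprc1 in 0. The estimate of Pprc1 was 0.33 (adjusted p = 0.141) with median-ratio rescaling and 0.24 (adjusted p = 0.339) with quantile normalization. Its call was also lost with no filter and with the exon length trend removed. The PGC-1 alpha gene Ppargc1a did not pass (log2 fold change -0.47 ± 0.18, adjusted p = 0.115). The genes of NRF1, GABP and YY1 did not pass either, with estimates above 0. These were 0.19 ± 0.09 for Nrf1, 0.05 ± 0.06 for Gabpa, 0.17 ± 0.10 for Gabpb1 and 0.25 ± 0.08 for Yy1. Their adjusted p-values (limma) were 0.193, 0.642, 0.264 and 0.0622. Of the 13 regulators, 6 had estimates below 0. The knockouts lay above the controls without overlap for 5 and below for 1, and for 33.9% and 7.91% of all tested genes.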

How the data were processed

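The authors deposited 1 table of FPKM for 28450 genes in 6 libraries, with Ensembl identifiers, symbols and positions. Per the submitters' processing notes, HISAT2 2.0.4, Bowtie2 2.2.6, StringTie 1.3.0 and GRCm38 were used; the role of each tool, strandedness and the treatment of fragments shared by paralogs were not given in the sources used here. Groups and replicate numbers came from the sample titles, and 0 columns of per-sample values were left unused. In GENCODE M21, 28374 identifiers were found, and 27155 had the same position; these gave exon and coding lengths.

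FPKM multiplied by exon length moved in steps, which gave the implied library totals; at these, 99.63% to 99.73% of low values (under 20 fragments) came within 0.1 of whole fragments. These totals served for depth and 1 alternative.

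Genes whose mean reached 1 FPKM, 10996 in all, were fitted on log2(FPKM + 1) with limma 3.58.1 in R 4.3.3 (lmFit, eBayes with a trend), knockout minus control, without covariates, with Benjamini-Hochberg adjustment over all of them. Folds on this scale understate changes of low genes. The p-values measure the spread between 3 mice a group, and an exact permutation test of 3 against 3 was not used. Members, lists and tests were chosen with earlier results of these data known. Values in every mouse are given for genes that passed, for the highest genes of each complex, for isoform pairs, for up to 4 called genes of each other list and for the mitochondrially encoded genes. The others were added after their values were seen, as were Ppargc1a, Nrf1, Gabpa, Gabpb1, Yy1, Ndufa4l2 and the electron carriers.

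Alternatives were pseudocounts of 0.1 and 5, no filter or one at 5 FPKM, median-ratio, quantile and common-sum scaling, removal of the exon length trend, limma without trend or robust, a replicate block, and each mouse left out. Removal of a GC trend, 2 combinations, voom (limma) on recovered fragments and sums without 5 genes were added after the data were seen. On simulated data for this comparison, with 10996 genes, 48% of 1.5-fold rises, 47.2% of falls of the same size, 75.6% of 2-fold and 97.2% of 4-fold changes were recovered, and 6.54% of the calls were unchanged genes. Far fewer genes were changed in the simulation than were called in the real data, so these rates need not hold for the real comparison. Promoter windows came from RefSeq tables (GRCm38.p6), with 33 genes matched by symbol and 2 by synonym. Python 3.11.15 with pandas 2.3.3 and matplotlib 3.10.9 was used for tables and figures.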

Additional observations from a re-analysis of the deposited data

How the results depend on the processing

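Of 818 recomputed results for single subunit genes, 712 kept their direction and side of the threshold, 56 lost a call, 28 gained one and 22 changed sign. In none of the alternatives did a subunit gene rise. The count of subunit genes that fell was 5 with no filter, 22 with median-ratio rescaling, 18 with the exon length trend removed after median-ratio rescaling, and 1 to 9 without 1 mouse; other settings gave 10 to 15. For the other oxidative phosphorylation genes the count was 10 as reported, 1 with no filter, 35 with median-ratio rescaling, 24 with quantile normalization, 4 with the exon length trend removed, 20 with that removed after median-ratio rescaling, and 0 to 13 without 1 mouse. The count of all tested genes called was 1819 as reported, 650 with no filter, 1108 with a filter at 5 FPKM, 2820 with a common sum, and 287 to 2250 without 1 mouse. As deposited 1532 rose and 287 fell; the split was 830 and 735 with median-ratio rescaling and 752 and 603 with quantile normalization, and the median of all genes moved from 0.13 to -0.001, -0.03 and, with a common sum, 0.229. The cause of these differences was not tested beyond the fewer or more genes and mice that the settings hold.

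The log2 ratio of sums moved under median-ratio rescaling from -0.19 to -0.35 for complex II, from -0.36 to -0.52 for complex III, from -0.21 to -0.37 for complex V and from -0.27 to -0.43 for complexes II to V, and to -0.12 for complex II with a common sum. Signs changed for genes that were not called: with median-ratio rescaling Sdha gave -0.11 (-0.12 with exon length also removed), Atp5s -0.03, mt-Atp6 -0.15 and mt-Cytb -0.05; quantile normalization gave -0.06 for Atp5s; a common sum gave 0.04 for Sdhb, 0.03 for Sdhc and 0.07 for mt-Atp8. Removal of the exon length trend gave 0.01 for Sdhb, 0.01 for Cox6a1 and 0.19 for mt-Atp8, which was 0.02 when rescaled first, and mt-Atp6 was -0.01 with the GC trend removed, with or without the block. Without 1 mouse the ranges that crossed 0 were -0.09 to 0.01 for Sdhb, -0.09 to 0.03 for Sdhc, -0.21 to 0.03 for Uqcrc1, -0.52 to 0.09 for Cox5a, -0.8 to 0.26 for Cox5b, -0.66 to 0.23 for Cox6a1, -0.93 to 0.34 for Cox8a, -0.18 to 0.01 for Atp5b, -0.46 to 0.05 for Atp5d, -0.01 to 0.18 for Atp5s, -0.28 to 0.24 for mt-Atp8 and -0.04 to 0.08 for mt-Atp6.

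Mice with the same number had correlated deviations from their group means (0.111, 0.092 and 0.187 over 10996 genes), and each mouse correlated best with the mouse of its own number, a hint from the data and not from the design; the labels state no pairing. With the replicate number as a block, 12 subunit genes fell, and 1672 genes rose and 346 fell over all tested genes. Fits that leave out 1 mouse have fewer residual degrees of freedom, so losing a call there does not single out that mouse. The implied depth, at most 16264500 fragments, leaves the tissue forms of complex IV at 0 to 6 fragments, where no difference could be detected.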
